A study of Homo sapiens with 12 samples.

Results

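The 6 EGF receptor ligands HBEGF, AREG, EREG, TGFA, EPGN and BTC were followed among the 19901 protein-coding genes of an RNA-Seq count table. They were chosen by gene symbol, with earlier results of these data known, and each symbol matched 1 row. All libraries came from HCT116 cells, a human colorectal carcinoma line, of a single clone (D5) in which endogenous KAP1 (also TRIM28) carries a degron tag, so that the dTAG ligand sends the protein to the proteasome. All cells were kept in serum-free medium for 48 h and received DMSO or dTAG for the last 8 h, and were then collected without serum (DMSO-S0 and dTAG-S0) or after 30 min of serum (DMSO-S30 and dTAG-S30). There were 4 groups of 3 libraries each, and the question was how serum and the loss of KAP1 protein, alone and together, altered the ligand transcripts.

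EGF receptor ligands are made as membrane-anchored precursors, which proteases of the ADAM family cut to release the soluble growth factor. The released ligand binds EGFR or ERBB4, receptor tyrosine kinases that signal to ERK through GRB2, SOS and RAS, and several ligand genes are themselves switched on by this signal, which makes them part of a feedback loop in epithelial cells. AREG (amphiregulin), EREG (epiregulin), TGFA (transforming growth factor alpha) and EPGN (epigen) bind EGFR, of which EREG also binds ERBB4, while HBEGF (heparin-binding EGF-like growth factor) and BTC (betacellulin) bind both. AREG and EREG are known for their high expression in many colorectal tumors.

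The libraries held 20537682 to 26278707 counts, of which the ERCC spike-ins, RNAs added in known amounts, took 7.97% to 9.37%. The label of an epithelial line was met by EPCAM at 252 to 284 and KRT8 at 411 to 599 CPM (normalised counts per 1000000 of the scaled library) over the 12 libraries, whereas the endothelial marker PECAM1 had 0 to 10 counts and the leukocyte marker PTPRC 8 to 35 counts in a library. dTAG acts on the KAP1 protein, so its transcript cannot check the labels (92.6 ± 6.27 CPM in dTAG-S0 and 96.9 ± 4.74 CPM in DMSO-S0, SD, n = 3). In bulk samples such as these, fewer cells that express a gene and less RNA per cell cannot be told apart. The study describes its RNA-Seq libraries of a group as biological replicates, and the labels do not say whether they were separate cultures. The p-values measure the spread between these libraries.

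On the hg38 genome, 4 of the 6 genes lie side by side on chromosome 4 within 486 kb. EPGN (ENSG00000182585.9) occupies chr4:74308473-74315307 on the plus strand, followed after 49.8 kb by EREG (ENSG00000124882.3, chr4:74365143-74388751, plus strand) and after a further 56.4 kb by AREG (ENSG00000109321.10, chr4:74445134-74455009, plus strand). BTC (ENSG00000174808.11, chr4:74744759-74794686, minus strand) is 290 kb beyond AREG. HBEGF (ENSG00000113070.7) is at chr5:140332843-140346631 and TGFA (ENSG00000163235.15) at chr2:70447280-70554193, both on the minus strand. Reads were counted over whole genes, introns included, so the values mix mature and unspliced RNA. The only overlap with another annotated gene was TGFA-IT1, a noncoding gene on the same strand inside TGFA, and reads from it count toward TGFA.

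The 250 bases before the start of AREG, EREG, EPGN and HBEGF are printed here because the first 3 are neighbours with very different expression and HBEGF shares the serum response from another chromosome. They come from RefSeq (GRCh38.p14), run 5′ to 3′ on the strand of the gene, and all 6 ligands had an entry. The starts are those of RefSeq and can differ from the gene coordinates given above. Read 5′ to 3′, the HBEGF and BTC windows end inside those coordinates, and the TGFA windows lie wholly within them. The AREG and EREG windows overlap them only at their last bases. Capitals mark matches, on either strand, to the motifs searched, which were the cAMP response element (CRE, TGACGTCA) and its core TGACG, the TATA box (TATAAA), the GC box (GGGCGG), the TEAD site (GGAATG), AP-1 (TGANTCA), EGR (GCGNGGGCG), ETS (CCGGAAG), the CArG box of SRF and NF-kB. The core lies within the CRE, so that a CRE is also 2 cores.
AREG, chr4:74444886-74445135: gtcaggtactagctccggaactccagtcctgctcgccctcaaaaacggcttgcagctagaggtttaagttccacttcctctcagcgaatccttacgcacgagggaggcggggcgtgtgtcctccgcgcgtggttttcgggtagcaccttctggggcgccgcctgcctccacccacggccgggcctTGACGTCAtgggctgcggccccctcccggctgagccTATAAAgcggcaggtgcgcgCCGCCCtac
EREG, chr4:74364895-74365144: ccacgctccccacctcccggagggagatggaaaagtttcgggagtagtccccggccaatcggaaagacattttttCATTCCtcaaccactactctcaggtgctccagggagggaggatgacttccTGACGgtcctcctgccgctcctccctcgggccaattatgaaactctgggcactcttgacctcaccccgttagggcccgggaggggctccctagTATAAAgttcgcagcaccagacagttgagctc
EPGN, chr4:74308220-74308469: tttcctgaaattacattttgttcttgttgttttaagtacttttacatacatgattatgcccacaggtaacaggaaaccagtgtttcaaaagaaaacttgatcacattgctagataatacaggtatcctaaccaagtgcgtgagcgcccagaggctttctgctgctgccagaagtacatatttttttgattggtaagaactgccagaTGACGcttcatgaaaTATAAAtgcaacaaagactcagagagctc
HBEGF, chr5:140346604-140346853: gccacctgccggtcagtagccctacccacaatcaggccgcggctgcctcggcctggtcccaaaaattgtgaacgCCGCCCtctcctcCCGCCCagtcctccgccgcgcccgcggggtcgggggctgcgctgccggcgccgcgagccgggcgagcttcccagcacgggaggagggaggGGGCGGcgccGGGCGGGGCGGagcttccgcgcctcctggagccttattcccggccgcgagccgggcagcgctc

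AREG held the full CRE at bases -65 to -58, counted back from -1 at the base before the start, and a TATA box at -29 to -24. The CRE letters occurred in 1.65% of 35116 RefSeq promoter windows of this length, and the TATA letters in 10.7%. EREG had the core at -125 to -121, a TATA box at -32 to -27 and a TEAD match at -175 to -170. EPGN, too, had the core, at -44 to -40, and a TATA box at -29 to -24. The core was found in 4 of the 7 windows of the ligands (TGFA has 2 listed starts, 1 of which held it) and in 21.2% of all windows. TEAD letters occurred in 11.9% of all windows and GC boxes in 42.6%. HBEGF held 5 GC boxes and no other match, and BTC (chr4:74794524-74794773) held no match. No window held the AP-1, EGR, ETS or CArG letters, which occurred in 6.57%, 8.41%, 8.52% and 1.16% of all windows, and an NF-kB match was found only in TGFA (5.21% of all windows). A match describes letters in this window and says nothing of binding.

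AREG and EREG were the major ligand transcripts, and they stood far above the others in every library. Levels of different genes are compared here as CPM per kb of gene length. In DMSO-S0, AREG was at 26.4 ± 0.053 and EREG at 22.9 ± 0.392 CPM per kb (SD, n = 3), higher than 98.1% and 97.8% of the 13093 genes tested. TGFA, BTC and HBEGF followed at 0.467 ± 0.0072, 0.412 ± 0.00174 and 0.307 ± 0.0297 CPM per kb, and EPGN was last at 0.0637 ± 0.0298. The ranges of neighbours in this order did not overlap among the 3 libraries, with the closest pair being TGFA (0.461 to 0.475) and BTC (0.41 to 0.413).

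After serum HBEGF passed TGFA and BTC on this scale. In DMSO-S30, AREG was at 150 ± 8.19, EREG at 44.5 ± 1.06, HBEGF at 1.13 ± 0.15, TGFA at 0.626 ± 0.0177, BTC at 0.373 ± 0.0141 and EPGN at 0.0483 ± 0.00277 CPM per kb, again with no overlap between neighbours. The order was the same with dTAG. In dTAG-S0, however, the ranges of TGFA (0.417 to 0.497), BTC (0.395 to 0.45) and HBEGF (0.338 to 0.436) overlapped from each to the next, so that these 3 could not be put in order beyond their spread. The order depends on dividing by length, since EREG is 23.6 kb long and AREG 9.88 kb. By undivided CPM, EREG (540 ± 9.26) was above AREG (261 ± 0.523) in DMSO-S0 and AREG passed it after serum, whereas HBEGF (15.6 ± 2.08) remained under BTC (18.6 ± 0.706) and TGFA (66.9 ± 1.89) in DMSO-S30. The undivided orders with dTAG were the same. For a long gene with large introns, such as TGFA (107 kb), this scale may lie well under its mRNA level.

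EPGN was near the limit of detection and did not pass the count filter (at least 10 counts in at least 6 libraries). It had 12, 5 and 9 counts in DMSO-S0, 7 in each library of DMSO-S30, 7, 9 and 9 in dTAG-S0 and 8, 5 and 6 in dTAG-S30. The groups overlapped, and for a library with 5 counts the exact Poisson 95% interval, which covers counting error only, ran from 1.62 to 11.7 counts. EPGN therefore received no test, and no change in it was detectable at this depth. The 5 other ligands were tested.

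**Figure D1:**
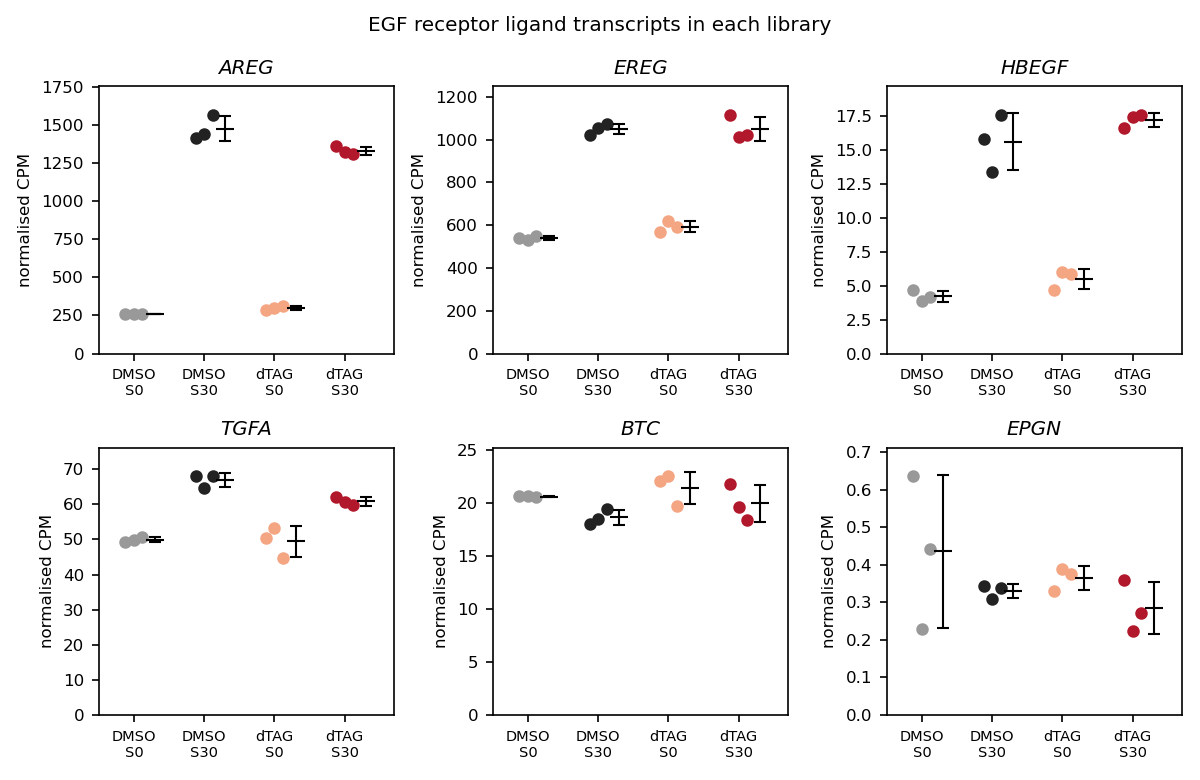
Normalised CPM of each ligand (y axis, from 0) in the 3 libraries of each group (points), with the mean and SD beside them. AREG, EREG, HBEGF and TGFA are higher in every serum library than in every serum-free library, BTC lies between 18 and 22.5 CPM throughout, and EPGN stays under 0.7 CPM.

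Serum raised 4 of the 5 ligands tested in DMSO-treated cells within 30 min, AREG most, followed by HBEGF, EREG and TGFA, whereas BTC was not called. Over all 13093 genes tested, 26.1% were called at an adjusted p under 0.05 and 9.15% were called higher (edgeR's quasi-likelihood test with Benjamini-Hochberg adjustment). The median log2 fold change was 0.96 for the 5 ligands and -0.07 for all genes tested. Because the ligands were chosen with earlier results of these data known, these contrasts describe them and do not test the family.

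AREG was at 261, 260 and 261 CPM in DMSO-S0. In DMSO-S30 it was at 1417, 1446 and 1570 CPM, far outside the serum-free range. The rise was 5.69-fold (95% interval 5.18 to 6.25, log2 fold change 2.51, SE 0.07, adjusted p = 3.52e-21), at rank 73 of the 13093 genes by log2 fold change. EREG, its neighbour upstream, was at 538, 532 and 550 CPM without serum and at 1022, 1056 and 1071 CPM with it, a 1.94-fold rise (1.77 to 2.12, adjusted p = 2.32e-12). Again the groups did not overlap.

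HBEGF, which also serves as the receptor of diphtheria toxin in its membrane-bound form, started from a low level. It was at 4.66, 3.85 and 4.17 CPM (88, 84 and 85 counts) in DMSO-S0 and at 15.8, 13.4 and 17.6 CPM (321, 305 and 364 counts) in DMSO-S30. The rise was 3.79-fold (3.13 to 4.58, log2 fold change 1.92, SE 0.13, adjusted p = 6.80e-12), with wider error than for AREG and far fewer counts behind it. TGFA rose least of the 4, from 49.3, 49.7 and 50.8 CPM to 68, 64.7 and 68 CPM, 1.33-fold (1.21 to 1.46, adjusted p = 4.45e-05). Even so, its serum libraries all lay above its serum-free ones. BTC was at 20.6, 20.6 and 20.5 CPM without serum and at 18, 18.5 and 19.4 CPM with it. The 3 serum libraries were the lower ones without overlap, but the log2 difference of -0.15 (-0.34 to 0.03) did not pass (adjusted p = 0.206).

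The same 4 ligands rose with serum in dTAG-treated cells, where 24.3% of all genes tested were called and 9.04% were called higher. AREG went from 285, 297 and 315 CPM to 1364, 1323 and 1312 CPM, a 4.45-fold rise (4.06 to 4.87, adjusted p = 4.99e-20). HBEGF went from 4.65, 6.02 and 5.83 CPM to 16.6, 17.4 and 17.6 CPM, a 3.07-fold rise (2.58 to 3.64, adjusted p = 3.93e-11). For all 4, every serum library was above every serum-free library. The share of all genes tested with such a separation is not given here. EREG rose 1.77-fold (1.62 to 1.93, adjusted p = 3.04e-11), from 569, 622 and 590 to 1117, 1011 and 1023 CPM. TGFA rose 1.24-fold (1.13 to 1.36, adjusted p = 9.92e-04), from 50.5, 53.1 and 44.6 to 62.1, 60.7 and 59.7 CPM. BTC was at 22, 22.5 and 19.7 CPM without serum and 21.8, 19.6 and 18.4 CPM with it, and these overlapped (log2 fold change -0.09, adjusted p = 0.471). Scaling of the libraries did not alter which ligands were called with serum, although the share of all calls that were higher was 35% in DMSO-treated and 37.2% in dTAG-treated cells here, 59.8% and 61.6% with TMM scaling, 66.5% and 62.5% with library sizes from the spike-ins and 58% and 59% with DESeq2.

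The unequal rises changed the make-up of the ligand transcripts. AREG made up 52.3% ± 0.416 of the summed CPM per kb of the 6 genes in DMSO-S0 and 76.2% ± 0.608 in DMSO-S30 (SD, n = 3), while EREG went from 45.3% ± 0.379 to 22.7% ± 0.681. With dTAG, AREG went from 53.3% ± 1.4 to 74.3% ± 0.611 and EREG from 44.3% ± 1.25 to 24.5% ± 0.666. HBEGF kept a share of 0.504% to 0.754% in all 12 libraries, and TGFA, BTC and EPGN were each at no more than 0.931%. The summed level itself went from 50.1 to 51 CPM per kb in DMSO-S0 libraries to between 189 and 207 in DMSO-S30 libraries.

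Within a library, the ratio of a pair of ligands does not depend on scaling. The ratio of AREG to EREG per length was 1.16, 1.17 and 1.13 in DMSO-S0 and 3.32, 3.27 and 3.5 in DMSO-S30. With dTAG it was 1.2, 1.14 and 1.27 without serum and 2.92, 3.13 and 3.06 with it. Serum thus moved the ratio 2.71-fold on average over both treatments, with no overlap. All 10 ratios among the 5 tested ligands differed with serum at p = 0.005 (exact permutation test, two-sided, within DMSO- and dTAG-treated cells), which is the smallest p that its 400 assignments can give, and remains 0.005 with Benjamini-Hochberg adjustment over the 10 ratios. These ratios were chosen after the values had been seen. They come from the same 5 genes, so they are not independent of each other and restate the unequal rises given above. Ratios of other gene pairs were not examined.

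**Figure D2:**
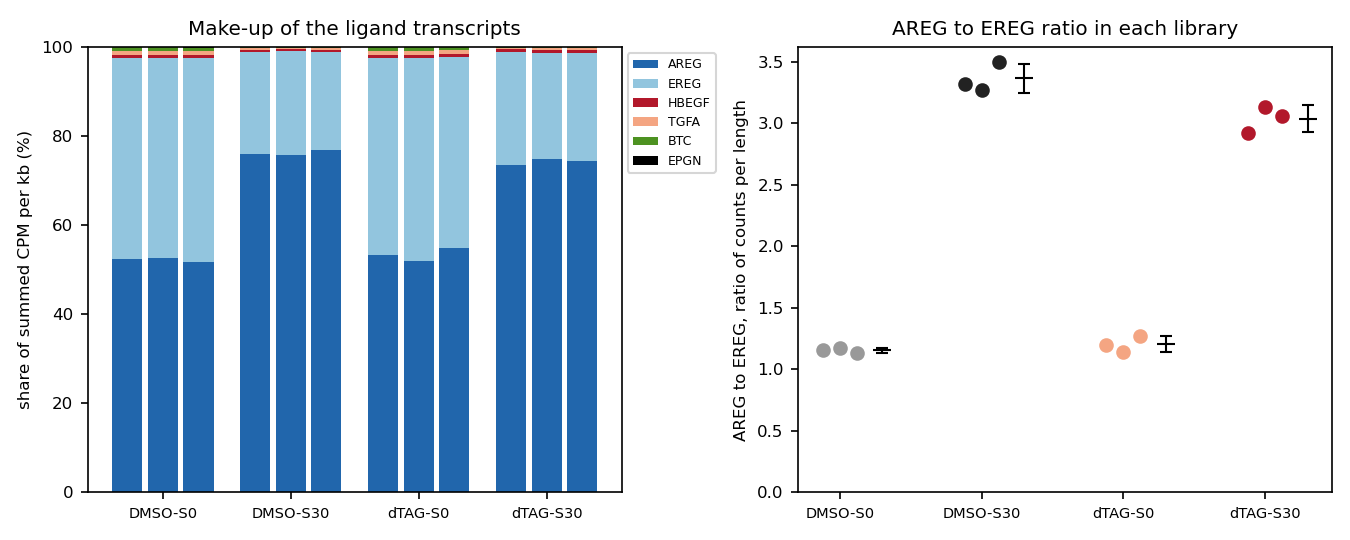
Left, the share (%) of each ligand in the summed CPM per kb of the 6 genes, 1 bar per library. Right, the AREG to EREG ratio of counts per length in each library (points) with the mean and SD. AREG takes 51.8% to 54.8% of the total in the serum-free libraries and 73.6% to 76.9% in the serum libraries, and the ratio is between 1.13 and 1.27 without serum and between 2.92 and 3.5 with it.

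Treatment with dTAG without serum led to no call among the 5 ligands, against 1.28% of all genes tested (edgeR). At an unadjusted p under 0.05 there were 3 (11.5% of all genes tested), namely HBEGF, AREG and EREG. All 3 had the higher mean with dTAG. HBEGF was at 5.5 ± 0.739 CPM in dTAG-S0 against 4.23 ± 0.409 in DMSO-S0 (SD, n = 3), a log2 fold change of 0.41 (0.11 to 0.71, edgeR adjusted p = 0.214), and the libraries overlapped. AREG was at 285, 297 and 315 CPM against 260 to 261, with no overlap (log2 fold change 0.20, 0.07 to 0.33, adjusted p = 0.134). EREG was at 569, 622 and 590 CPM against 532 to 550, also with no overlap (log2 fold change 0.13, 0.01 to 0.26, adjusted p = 0.388). With 3 libraries a group, here and with serum, a lack of overlap can arise without an effect and is no added support. TGFA (log2 fold change -0.02, -0.16 to 0.11) and BTC (0.05, -0.13 to 0.23) overlapped between the groups. AREG passed the threshold with DESeq2 (log2 fold change 0.20, adjusted p = 0.00517) and when dTAG-S30 replicate 3, a library outside the comparison that enters the shared fit, was left out (0.20, adjusted p = 0.0456). Across the other settings the adjusted p of AREG lay between 0.00517 and 0.28, and across the 12 left-out libraries between 0.0456 and 0.424.

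With serum, dTAG again led to no call among the 5 ligands (1.21% of all genes tested), with 1 at an unadjusted p under 0.05 (10.4% of all genes tested) and none called by DESeq2. That gene was AREG, and here it was lower with dTAG. It was at 1364, 1323 and 1312 CPM in dTAG-S30 against 1417, 1446 and 1570 CPM in DMSO-S30, with no overlap and a log2 fold change of -0.15 (-0.28 to -0.03, edgeR adjusted p = 0.323). TGFA was also lower without overlap, at 59.7 to 62.1 CPM against 64.7 to 68 CPM (log2 fold change -0.12, -0.26 to 0.01, adjusted p = 0.536). EREG was at 1050 ± 57.8 CPM with dTAG and 1049 ± 25.1 CPM with DMSO (SD, n = 3), and the 95% interval of its log2 difference was -0.12 to 0.13. HBEGF (0.11, -0.12 to 0.34) and BTC (0.11, -0.07 to 0.29) overlapped between the groups. Without DMSO-S30 replicate 2, the lowest of its group for HBEGF, the HBEGF value was -0.04.

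The interaction asks whether serum acted differently with KAP1 protein present and depleted, and it is the difference of the serum effects on the log2 scale, dTAG minus DMSO. It was not called for any of the 5 ligands (edgeR, 0.0382% of all genes tested), and 1 of them, AREG, had an unadjusted p under 0.05 (3.09% of all genes tested). The AREG difference was -0.36 (-0.54 to -0.17, edgeR adjusted p = 0.402). The serum-induced fold with dTAG was thus 0.782 times that with DMSO (0.688 to 0.888), and AREG had rank 16 by p among the 13093 genes. Both ends contributed to it, as AREG was higher with dTAG before serum and lower after it. The AREG interaction was called with DESeq2 (-0.36, adjusted p = 5.68e-04) and with no count filter (-0.35, adjusted p = 0.0323), so the call depends on the tool and the filter while the size does not. The values for HBEGF (-0.30, -0.69 to 0.08), EREG (-0.13, -0.31 to 0.05), TGFA (-0.10, -0.30 to 0.10) and BTC (0.06, -0.20 to 0.32) had intervals that included 0. The HBEGF value was -0.47 without DMSO-S30 replicate 2 and -0.19 without DMSO-S0 replicate 2 (adjusted p = 0.999 and 0.924). The comparisons share libraries, the serum effects with the dTAG effects and the interaction with all of them, and so are not independent of each other.

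**Figure D3:**
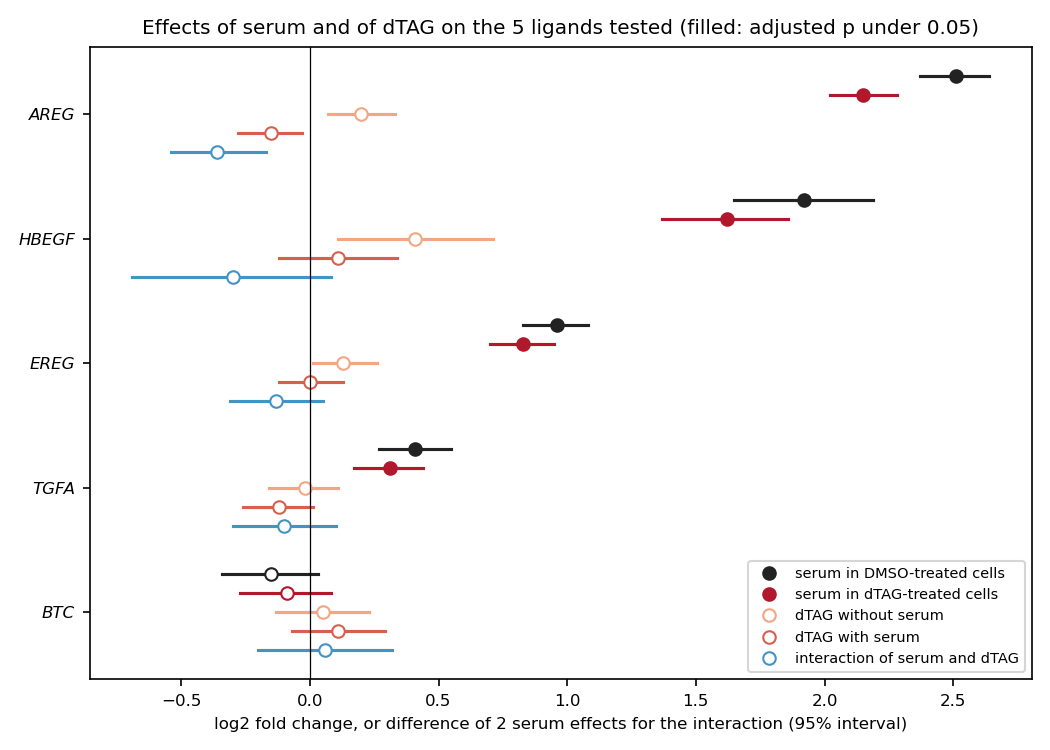
Log2 fold change of the 5 tested ligands in the 4 comparisons and the difference of the serum effects (x axis), with 95% intervals. Filled points had an adjusted p under 0.05, which are the serum effects of AREG, HBEGF, EREG and TGFA in both treatments. The AREG interaction at -0.36 has an interval below 0 but is not filled.

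The genes around the ligands were examined next. Of 56 genes within 500 kb of a ligand, 32 were tested. With serum in DMSO-treated cells, 6 were called higher and 5 lower, a share of called genes to be set against the 26.1% of all genes. In dTAG-treated cells 4 were called higher and 6 lower, to be set against the 24.3% of all genes. In the chromosome 4 cluster, 5 of 10 neighbours were tested. CXCL2, a neutrophil-attracting chemokine 209 kb from EPGN, rose from 0.5 to 3.17 CPM (log2 fold change 2.59, adjusted p = 6.68e-08) and with dTAG from 0.998 to 4.17 CPM (2.09, adjusted p = 9.07e-08). CXCL2 had only 5 to 98 counts in a library. MTHFD2L, a mitochondrial folate enzyme that ends 5.37 kb before EPGN, fell by 0.28 on the log2 scale in both (adjusted p = 0.00213 and 0.00164), and both calls were lost with spike-in library sizes. CXCL1, a related chemokine, and PARM1, a mucin-like membrane protein on the far side of BTC, were called higher with serum in DMSO-treated cells (log2 fold change 0.93 and 0.23). Neither was called with serum in dTAG-treated cells (0.38 and 0.10, edgeR adjusted p = 0.263 and 0.251). The interaction was not called for CXCL1 (-0.55) or PARM1 (-0.14). The serum effect was therefore not uniform along the cluster, in which EPGN, near the limit of detection, and BTC, which was not called, flank EREG and AREG.

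CXCL1 and PARM1 were also the neighbours called higher with dTAG without serum, 2 of the 32 tested, against 1.28% of all genes tested called in either direction. CXCL1 was at 1.7 against 0.684 CPM (log2 fold change 1.27, adjusted p = 0.0207) and PARM1 at 67 against 56.7 CPM (0.24, adjusted p = 0.0382). Neither call held without each library. The CXCL1 call was lost without DMSO-S0 replicate 1 (1.15), dTAG-S0 replicate 1 (1.18) or dTAG-S0 replicate 3 (1.26), and the PARM1 call without DMSO-S0 replicate 1 (0.26) or 2 (0.20) or dTAG-S0 replicate 1 (0.22) or 3 (0.24). The PARM1 call was also lost with spike-in library sizes (0.27) and in a fit of only the groups compared (0.25). The CXCL1 call with serum was likewise lost without DMSO-S30 replicate 1 (0.91) or 2 (0.84). CXCL1 had 11 to 56 counts in a library.

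**Figure D4:**
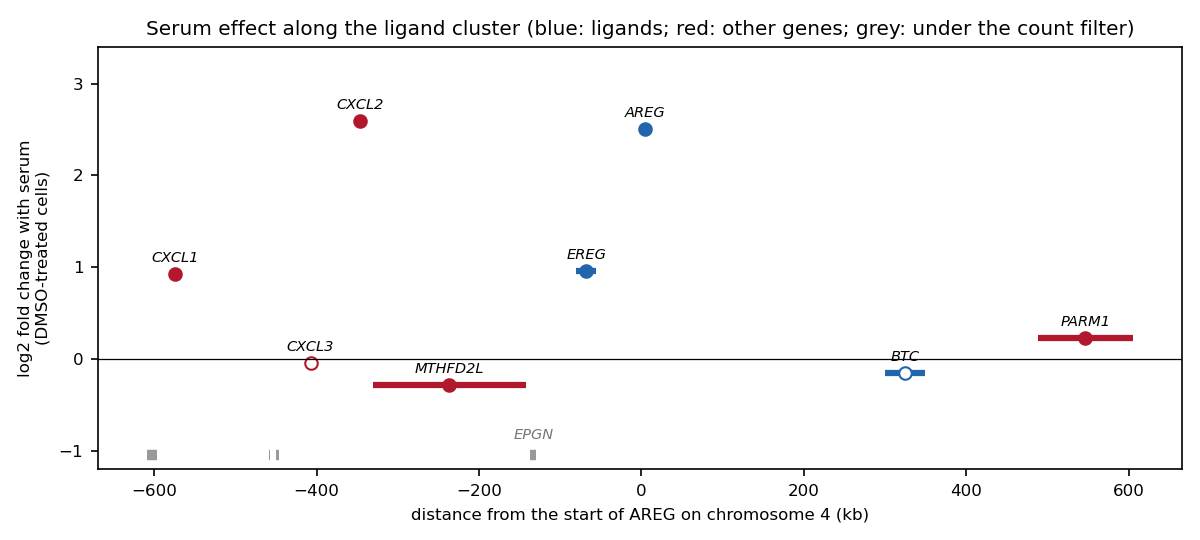
Log2 fold change with serum in DMSO-treated cells (y axis) of the genes around the chromosome 4 ligands, against the distance from the start of AREG in kb (x axis), with bars for the extent of each gene. Ligands are blue, other genes red (filled where the adjusted p was under 0.05), and genes under the count filter are grey at the bottom, EPGN among them. AREG at 2.51 and CXCL2 at 2.59 (only 5 to 98 counts in a library) stand highest, and MTHFD2L and BTC lie under 0.

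Around HBEGF on chromosome 5, CYSTM1, a small membrane protein gene 50.8 kb away, rose with serum from 32.8 to 133 CPM in DMSO-treated cells (log2 fold change 2.02, adjusted p = 6.14e-17) and from 35.6 to 124 CPM with dTAG (1.80, adjusted p = 3.96e-16). SRA1 rose by 0.48 and 0.40. PURA, a nucleic acid-binding protein, was called lower with log2 fold changes of -0.26 and -0.23. HARS2 was called in DMSO-treated cells alone (-0.19, against -0.18 with dTAG). IGIP (-0.43, against -0.22 with DMSO) and TMCO6 (-0.29, against -0.25 with DMSO) were called in dTAG-treated cells alone. The interaction was not called for any of these (0.01 for HARS2, -0.21 for IGIP and -0.03 for TMCO6). Around TGFA on chromosome 2, PCBP1 was called higher (0.20 in both), and C2orf42 (-0.22 in both) and the gene ENSG00000258881 (-0.83 and -0.49) lower. All of the negative calls in this paragraph, other than that of ENSG00000258881 in DMSO-treated cells, were lost with spike-in library sizes, where the values were -0.20 and -0.19 for PURA, -0.13 for HARS2, -0.35 for IGIP, -0.25 for TMCO6, -0.15 and -0.18 for C2orf42 and -0.47 for ENSG00000258881 with dTAG. Those of C2orf42, HARS2, IGIP and TMCO6 were also lost with TMM scaling and with DESeq2 (-0.33 to -0.12), that of PURA with dTAG with TMM scaling (-0.17), those of C2orf42, HARS2 and IGIP with no count filter (-0.28 to -0.16) and that of C2orf42 with dTAG with 2 factors (-0.21). Single libraries ended calls as well. In DMSO-treated cells these were DMSO-S30 replicate 3 for PCBP1 (0.22), DMSO-S0 replicate 2 (-0.17), DMSO-S30 replicate 1 (-0.18) and DMSO-S30 replicate 2 (-0.21) for C2orf42, and HARS2 kept its call without only 5 of the 12 libraries (-0.25 to -0.15 over all 12). In dTAG-treated cells these were dTAG-S0 replicate 2 for PCBP1 (0.16), PURA (-0.20), IGIP (-0.36) and TMCO6 (-0.28), dTAG-S30 replicate 2 for PCBP1 (0.15), C2orf42 (-0.21), ENSG00000258881 (-0.40), IGIP (-0.42) and TMCO6 (-0.24), dTAG-S0 replicate 3 for C2orf42 (-0.20), IGIP (-0.33) and TMCO6 (-0.28), dTAG-S30 replicate 3 for C2orf42 (-0.21) and IGIP (-0.27), dTAG-S30 replicate 1 for C2orf42 (-0.23) and DMSO-S0 replicate 2 for IGIP (-0.38). The SRA1 and CYSTM1 calls held without each library.

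Of the 4 ERBB receptors, EGFR and its dimerisation partners ERBB2 and ERBB3 were tested and were not called in any comparison. EGFR was at 224 to 257, ERBB2 at 68.1 to 72.5 and ERBB3 at 35.5 to 38.6 CPM as group means. With serum, EGFR had a log2 fold change of 0.10 in DMSO-treated (adjusted p = 0.227) and 0.15 in dTAG-treated cells (adjusted p = 0.0561). ERBB4, which also binds some of these ligands, did not pass the count filter, with 2 to 9 counts in a library. Of the other ERBB ligands, 4 of 5 were tested (EGF and the neuregulins NRG1, NRG2 and NRG4) and none was called. Of all genes tested, 26.1% and 24.3% were called with serum in DMSO- and dTAG-treated cells. In lists this short, a lack of calls does not show that the genes were unaffected. EGF, the ligand that gives the receptor its name, had 4 to 18 counts in a library and NRG4 9 to 30. The EGF log2 fold change was -1.15 for dTAG without serum and 1.02 for serum with dTAG (edgeR adjusted p = 0.249 and 0.0855). NRG1 was at 5.47 to 7.42 CPM as a group mean.

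Of 8 proteases and trafficking factors that release the ligands, 6 were tested. With serum, 2 were called higher and 1 lower in DMSO-treated cells, and 2 higher in dTAG-treated cells. Of all genes tested, 26.1% and 24.3% were called. ADAM9 rose with serum from 182 to 252 CPM (log2 fold change 0.47, adjusted p = 4.97e-07) and with dTAG from 181 to 238 CPM (0.40, adjusted p = 4.99e-06). FRMD8, which stabilises the iRhom and ADAM17 complex at the cell surface, rose by 0.27 and 0.30 (adjusted p = 0.00473 and 0.00144). ADAM17 and ADAM10, the main sheddases of these ligands, were at 90.3 to 93.5 and 223 to 235 CPM as group means and were not called. The iRhom RHBDF2 was called lower in DMSO-treated cells (-0.22, adjusted p = 0.0291) and not with dTAG (-0.07). Its interaction was not called (0.15).

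All 15 genes of the route from EGFR to ERK were tested. With serum, 1 was called higher and 3 lower in DMSO-treated cells, and 1 higher and 1 lower in dTAG-treated cells. The called share was near the 26.1% of all genes tested in DMSO-treated cells and below the 24.3% in dTAG-treated cells. The adaptor SHC1 rose with serum in both treatments (log2 fold change 0.36 and 0.32, adjusted p = 1.34e-04 and 4.21e-04). The RAS activator SOS1 was called lower in both (-0.18 and -0.17). Its relative SOS2 (-0.18) and the adaptor GAB1 (-0.30) were called lower in DMSO-treated cells alone. With dTAG their values were -0.17 and -0.23, and the interaction was not called for either. The RAS, RAF, MEK and ERK genes themselves were not called in any comparison.

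The 11 inhibitors of the receptor, all tested, included the gene with the largest serum effect of the tested genes in these lists. ERRFI1 (MIG6), a feedback inhibitor that binds the EGFR kinase domain, rose with serum from 506 to 1484 CPM (log2 fold change 1.56, adjusted p = 8.92e-17) and with dTAG from 607 to 1569 CPM (1.37, adjusted p = 8.12e-16). It was also the only listed gene called with dTAG without serum (0.26, adjusted p = 0.0242), a call that was lost without dTAG-S0 replicate 3 (0.23) and with spike-in library sizes (0.29). With serum, the ubiquitin ligase CBLC rose in both treatments (0.47 and 0.66), and LRIG2 (-0.29 and -0.27) and LRIG3 (-0.51 and -0.54), membrane proteins of the LRIG family, fell. SOCS4 (0.22, against 0.02 with dTAG) and CBL (-0.19, against -0.12) were called in DMSO-treated cells alone. CBLB (-0.23, against -0.20 with DMSO) and SOCS5 (-0.19, against -0.09) were called in dTAG-treated cells alone. The interaction was not called for any of them. The count was 3 higher and 3 lower in DMSO-treated and 2 higher and 4 lower in dTAG-treated cells, with list medians of -0.09 and -0.12 against -0.07 and -0.06 for all genes tested. Of all genes tested, 26.1% and 24.3% were called in these 2 comparisons.

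The calls of the small decreases in the pathway lists depended on scaling. The calls for RHBDF2, SOS1, SOS2, GAB1, CBL, CBLB and SOCS5 were all lost with TMM scaling, with spike-in library sizes and with DESeq2, and those for LRIG2 with spike-in library sizes, though no sign changed. With spike-in library sizes, under which 1766 genes in place of 3420 were called in DMSO-treated cells and 1646 in place of 3184 in dTAG-treated cells, the values were -0.16 for RHBDF2, -0.10 for SOS1, -0.11 for SOS2, -0.21 for GAB1, -0.14 for CBL and -0.20 for LRIG2 in DMSO-treated cells, and -0.14 for SOS1, -0.20 for CBLB, -0.16 for SOCS5 and -0.25 for LRIG2 in dTAG-treated cells. With no count filter the calls of SOS1 (-0.15) and SOS2 (-0.16) in DMSO-treated cells were lost as well. Single libraries also ended calls. In DMSO-treated cells these were DMSO-S0 replicate 3 for RHBDF2 (-0.22), GAB1 (-0.22), CBL (-0.15) and SOCS4 (0.15), DMSO-S30 replicate 2 for RHBDF2 (-0.18), SOS1 (-0.17) and GAB1 (-0.28), DMSO-S30 replicate 3 for SOS2 (-0.17) and CBL (-0.16), and DMSO-S30 replicate 1 (-0.18) and dTAG-S30 replicate 2 (-0.17) for SOS2. In dTAG-treated cells these were dTAG-S0 replicate 2 for SOS1 (-0.16), CBLB (-0.18) and SOCS5 (-0.15), dTAG-S30 replicate 2 for SOS1 (-0.15) and CBLB (-0.20), and dTAG-S30 replicates 1 (-0.18) and 3 (-0.14) for SOCS5. The calls for ADAM9, FRMD8, SHC1, CBLC, LRIG3 and, with serum, ERRFI1 held in all 9 other settings and without each of the 12 libraries.

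**Figure D5:**
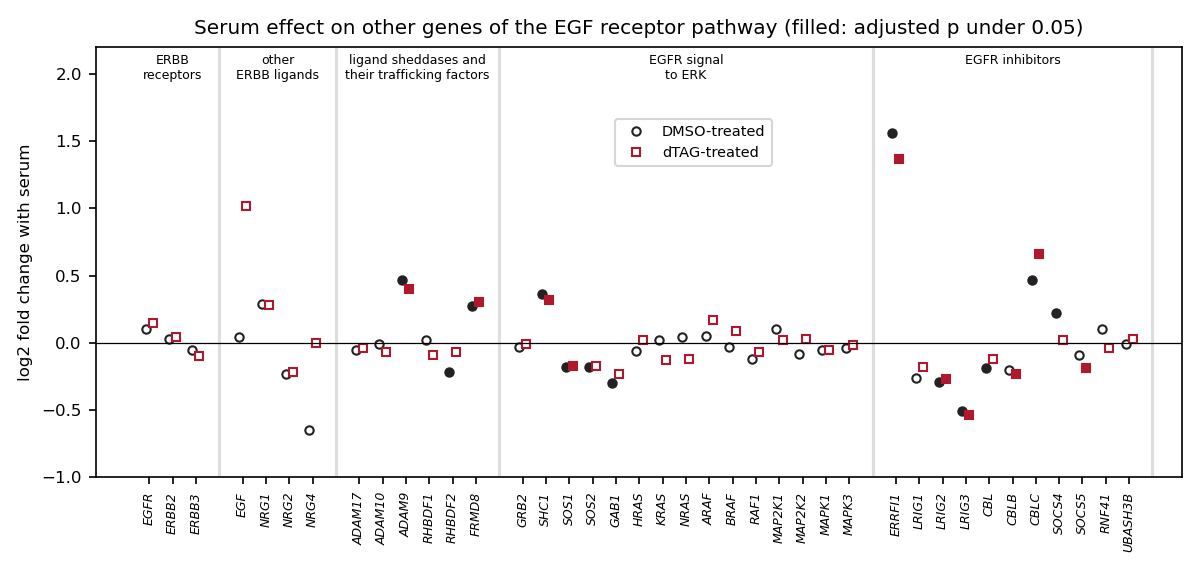
Log2 fold change with serum (y axis) of the tested genes of 5 lists, in DMSO-treated (black circles) and dTAG-treated cells (red squares). Filled points had an adjusted p under 0.05. ERRFI1 stands apart at 1.56 and 1.37, and the 3 receptors lie between -0.10 and 0.15.

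Each tested ligand was then set beside the genes with the most similar profile over the 12 libraries, measured as the root mean square difference of log2 CPM after each gene was centred on its own mean. This is a description over libraries that fall into 4 groups, so any gene with a like serum effect comes close. Nearest to AREG was CD55, a complement inhibitor on the cell surface, at a difference of 0.09, with log2 fold changes of 2.39 and 2.03 with serum, 0.13 with dTAG without serum and -0.23 with dTAG and serum. DUSP4, a MAP kinase phosphatase, and GPRC5A, an orphan receptor induced by retinoic acid, followed at 0.11 each. HBEGF was closest to RHOB (0.12), MAP3K8 (0.15) and KLF4 (0.16), which encode a small GTPase, a kinase upstream of MEK and a transcription factor.

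EREG was nearest to MALL (0.06), DSTN (0.07) and EZR (0.08), the latter pair being actin-binding proteins. TGFA was nearest to EPHA4 (0.05), CAV2 (0.05) and YTHDF3 (0.06), and BTC to ERP44, ATR and SHTN1 (0.04 each). Among the ligands themselves, AREG was closer to HBEGF (0.33) than to its neighbour EREG (0.72). EREG was closest to TGFA (0.28), and TGFA slightly closer to BTC (0.26).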

How the data were processed

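The 12 libraries were made from rRNA-depleted total RNA with ERCC spike-ins. Per the study's methods and the labels, the authors checked reads with FastQC (0.11.8), trimmed them with Trim Galore (0.6.4), mapped them with STAR to hg38 and counted them with featureCounts (Subread 1.6.3) over whole protein-coding genes. The strand setting is not given in the sources used here. The deposited values are raw counts per gene and library, with no normalization. Gene starts in the table were 1 base below GENCODE for 11092 of 19802 matched genes, so 1 was added to print 1-based positions.

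Of 19901 genes, the 13093 that reached 10 counts in 6 or more libraries were tested. Counts were fitted in edgeR (4.0.16, R 4.3.3) with upper-quartile scaling, 1 factor of unwanted variation estimated from the ERCC spike-ins (RUVg method) and 4 group means over all 12 libraries. The quasi-likelihood F-test (two-sided) was adjusted by Benjamini-Hochberg over all genes tested, and genes were called at an adjusted p under 0.05. CPM here means the count of a gene per 1000000 counts of its library, after scaling, and 95% intervals come from the fit. The procedure was run on simulated data with 200 changed genes and the same spread for all genes. The simulation covered the serum comparison in DMSO-treated cells alone, and not the dTAG comparisons or the interaction. Alternatives were TMM scaling, no factor, 2 factors, spike-in library sizes, no count filter, the likelihood ratio test, DESeq2 (1.42.0), only the groups compared, a replicate block and each library left out. Depth was 20537682 to 26278707 counts, and intervals on single counts cover counting error only.

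The members and gene lists were chosen with earlier results of these data known. Genes named were the 6 ligands, the ERBB receptors, every gene of the fixed lists or within 500 kb of a ligand that was called in any comparison, and the 3 most similar genes of each tested ligand. A few others of the lists (EGF, NRG1, NRG2, NRG4, ADAM17 and ADAM10) are named for their role. Motifs were searched as letters in 250 bases of the RefSeq promoter table.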

Additional observations from a re-analysis of the deposited data

Results flagged for a closer look

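The effect of dTAG on AREG had opposite signs without and with serum. Every dTAG-S0 library (285, 297 and 315 CPM) was above the mean of DMSO-S0 (261 CPM), and every dTAG-S30 library (1364, 1323 and 1312 CPM) was below the mean of DMSO-S30 (1478 CPM). The difference itself was tested as the interaction, which was -0.36 on the log2 scale (SE 0.09, edgeR adjusted p = 0.402) and did not pass over all genes. In the other settings the adjusted p was 5.68e-04 at the lowest and 1 at the highest, and without single libraries 0.0851 to 1, with values from -0.39 to -0.30.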

How the results depend on the processing

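The serum calls of AREG, HBEGF, EREG and TGFA held in both treatments under all 9 other settings and without each of the 12 libraries. The count of called ligands without serum became 1 with DESeq2 (AREG, 0.20, adjusted p = 0.00517) and ranged from 0 to 1 over the left-out libraries. The count for the interaction became 1 with no count filter (AREG, -0.35) and 1 with DESeq2 (AREG, -0.36). The cause was not tested. Over the left-out libraries, AREG with dTAG without serum ranged from 0.16 to 0.23. The signs of values near 0 were not stable. TGFA with dTAG without serum was 0.02 with spike-in library sizes, 0.01 with no count filter and -0.08 to 0.05 over left-out libraries (0.05 without dTAG-S0 replicate 3), HBEGF with dTAG and serum -0.04 to 0.20, and the BTC interaction -0.03 to 0.12 (-0.03 without dTAG-S30 replicate 1).

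Same-numbered libraries did not deviate together (correlations of -0.153 to 0.139 over 18 pairs), and the numbers were not used as pairs. This check cannot show whether same-numbered libraries were handled together. With a replicate block the count of called ligands was 4, 4, 0, 0 and 0 in the 5 comparisons in the order of the report, as without it. Over all genes, counts that moved by over 1.5 times were 1766 (3420 in the report) and 1646 (3184) for serum in DMSO- and dTAG-treated cells with spike-in library sizes. For dTAG without serum (168) they were 76 with spike-in library sizes, 275 with no filter, 283 with the likelihood ratio test and 257 with DESeq2, and for dTAG with serum (159) 66, 406, 266 and 298, and 267 with only the groups compared. For the interaction (5) they were 3, 29, 10 and 22, and 9 with 2 factors. Over left-out libraries these 3 counts ranged from 111 to 299, 95 to 258 and 5 to 14. At 5 to 12 counts a library, depth limits EPGN.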

Other observations

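The ratios among the 5 tested ligands were also compared between dTAG- and DMSO-treated cells, within each serum condition (exact permutation test, two-sided, 400 assignments), after the values had been seen. Of 10 ratios, 4 passed at 0.05 after Benjamini-Hochberg adjustment over the 10. EREG to TGFA was 1.11-fold higher with dTAG (exact permutation, adjusted p = 0.025), HBEGF to TGFA 1.27-fold higher (adjusted p = 0.0333) and HBEGF to AREG 1.18-fold higher (adjusted p = 0.0375), while TGFA to BTC was 0.899 times its value with DMSO (adjusted p = 0.025). The AREG to EREG ratio with dTAG was 0.97 times that with DMSO over both serum conditions (exact permutation p = 0.37, adjusted p = 0.463), an average of opposite directions. Without serum it was 1.14 to 1.27 with dTAG against 1.13 to 1.17 with DMSO, which overlapped, and with serum 2.92 to 3.13 against 3.27 to 3.5, lower without overlap. The 10 ratios come from the same 5 genes and are not independent of each other, and ratios of other gene pairs were not examined. The adjustment covers these ratios alone and not all genes, so it is no independent evidence on any ligand.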
